A study of Mus musculus with 24 samples.

Results

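The 41 genes described here encode antiviral effectors that type I interferon switches on. They were taken by symbol: a gene entered when its symbol, as the 2 deposited value files spell it, was on a list of 41 names, and all 41 were found exactly once in each file, among 55487 genes. The list holds 4 IFIT genes, 6 genes of the OAS family and PKR, 7 genes for direct restriction factors such as the MX GTPases and viperin, 4 genes of the ISG15 conjugation system, Parp9, Dtx3l and Parp14, 3 guanylate-binding GTPases, 4 Schlafen genes, 4 genes of the TRIM30, SP100 and HIN-200 kind and 6 further interferon-induced genes. No measured value was used to choose them, although the list was drawn up by someone who knew earlier results of these data.

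RNA was measured in 24 libraries of mouse Cas9-LP cells, which are lymphoid progenitor (LP) lines from fetal liver that lack Ebf1, the factor that commits progenitors to the B lineage, and that carry a Cas9 gene knocked into Rosa26. Every group therefore shared the Ebf1 deficiency and Cas9, and every group grew with SCF, Flt3L and IL-7. In experiment 1, cells carrying a control sgRNA against luciferase (sgControl) or sgRNAs against Cbfb (sgCbfb) were kept on OP9 stroma as LPs, or were moved for 2 days onto OP9-DLL4 stroma, whose Notch ligand starts the T-lineage program, to become Phase 1 cells. In experiment 2, LPs on OP9 carried sgControl, sgCbfb, sgCTCF or sgMed12. Each of these 8 groups had 3 libraries, made from CD45+ cells sorted for the human NGFR reporter of the sgRNA vector 5 days after transduction. Cbfb is the non-DNA-binding partner of the RUNX transcription factors, CTCF is the zinc-finger protein that anchors chromatin loops, and Med12 belongs to the kinase module of Mediator. The sgRNAs for a gene were delivered as a mixture of 3 vectors, so a sorted population holds cells with different edits, and in such bulk samples fewer cells that express a gene and less RNA per cell cannot be told apart.

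Type I interferon binds a receptor whose kinases JAK1 and TYK2 pass the signal to a transcription factor complex that contains IRF9. This complex enters the nucleus and binds the interferon-stimulated response element (ISRE) near the start of its target genes, and the products then degrade viral RNA, halt translation, trap virions or modify viral and cellular proteins. Some of these genes are transcribed at a low level without added interferon, and others are nearly silent until the pathway is engaged.

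The ISRE is the sequence these genes are known for, so promoter windows of members that differ in their response are shown before the values. A RefSeq promoter window of GRCm38.p6, running from 250 bases before to 50 bases after a transcription start, was given for 33 of the 41 members. The ISRE core, taken as GAAA, any 2 bases and GAAA again on either strand, occurred in 17 of these 33 members (51.5%) and in 3.99% of all 27025 genes with a window. The windows below hold every core of the gene with 25 bases on each side where the window allowed it, 5′ to 3′ on the strand of the gene, and the capitals mark the cores. They lie at chr4:156200850-156200921 (minus strand) for Isg15, chr19:34640760-34640838 (plus) for Ifit1, chr12:26456538-26456597 (minus) for Rsad2, chr7:104465195-104465254 (minus) for Trim30a, chr7:104507856-104507915 (minus) for Trim30d, chr1:173942493-173942552 (minus) for Ifi203, chr3:142530258-142530317 (plus) for Gbp7, chr11:83020824-83020883 (minus) for Slfn8, chr19:34583348-34583441 (plus) for Ifit3 and chr8:71537562-71537627 (minus) for Bst2.
Isg15: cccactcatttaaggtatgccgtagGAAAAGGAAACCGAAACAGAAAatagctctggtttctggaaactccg
Ifit1: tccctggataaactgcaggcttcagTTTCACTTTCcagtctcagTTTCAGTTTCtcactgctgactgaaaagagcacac
Rsad2: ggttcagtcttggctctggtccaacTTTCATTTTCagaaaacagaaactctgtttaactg
Trim30a: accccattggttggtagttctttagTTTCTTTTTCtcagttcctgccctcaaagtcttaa
Trim30d: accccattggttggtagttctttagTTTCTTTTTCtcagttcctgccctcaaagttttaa
Ifi203: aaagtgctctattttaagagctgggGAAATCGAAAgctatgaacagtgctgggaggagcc
Gbp7: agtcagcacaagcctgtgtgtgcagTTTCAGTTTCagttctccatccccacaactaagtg
Slfn8: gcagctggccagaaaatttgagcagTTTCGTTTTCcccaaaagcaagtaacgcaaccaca
Ifit3: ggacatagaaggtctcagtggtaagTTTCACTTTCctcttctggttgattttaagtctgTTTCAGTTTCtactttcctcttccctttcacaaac
Bst2: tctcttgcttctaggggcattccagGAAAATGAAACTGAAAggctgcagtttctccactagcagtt
Isg15 held 3 overlapping cores, between 78 and 57 bases before its start. Ifit3b, at chr19:34607744-34607837, has the same printed sequence as Ifit3. The GAS core TTCNNNGAA, an element known from interferon gamma responses, was found in 7 of the 33 members (21.2%, against 9.55% of all genes), and the RUNX core, TGTGGT or TGCGGT, in 9 (27.3%, against 25%). No promoter window was given for Oas2, Mx1, Mx2, Usp18, Parp9, Parp14, Rtp4 and Ifi27l2a. A match describes these letters only and does not say that a factor bound there.

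The libraries held 1363263 to 1743319 reads on genes in experiment 1 and 3354485 to 4326785 in experiment 2. Values are counts per 1000000 reads (CPM) of 3′ end tags, so 3 reads, taken as the detection floor, equal 1.72 to 2.20 CPM in experiment 1 and 0.693 to 0.894 CPM in experiment 2. Phase 1 sgControl replicate 3 and sgMed12 replicate 2 stood apart from the other replicates of their groups, with chi-square values per gene of 8.75 to 10.7 and 9.43 to 17.6, against 2.46 to 5.01 for the other pairs. Cbfb transcripts were lower with sgCbfb in both LP experiments (limma log2 difference -1.09, adjusted p = 0.0055 in experiment 1, and -1.23, adjusted p = 4.3e-06 in experiment 2), while in Phase 1 cells the difference was -0.27 (adjusted p = 0.59). Ctcf was at 330, 272 and 314 CPM with sgCTCF and at 404, 356 and 413 CPM with sgControl (-0.36, adjusted p = 0.021), and Med12 was at 9.61, 3.20 and 8.23 CPM with sgMed12 and at 6.59, 4.43 and 4.38 CPM with sgControl (0.30, adjusted p = 0.66), so transcript level does not show the Med12 edit. The study calls its replicates biologically independent but the labels do not say whether they came from separate cultures or lines, and the p-values measure the spread between these libraries.

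Log2 differences are given as limma estimates on log2(CPM + 1) with their standard error (SE), which understates the change of genes at low levels, and folds as ratios of group mean CPM. A gene is called higher or lower when its Benjamini-Hochberg adjusted p over all tested genes is under 0.05, its mean changes more than 2-fold and its mean exceeds 10 CPM in either group. The test covered 13239 genes in experiment 1, with 36 of the 41 members, and 13177 in experiment 2, with 38. Ifi44, a gene of unsettled function induced in many virus infections, Oas1a and Slfn1 were too low for the test in both experiments, and Ifit3 and Ifit3b in experiment 1.

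In sgControl LPs most of the effectors were scarce. In experiment 2, 12 members averaged over 10 CPM and 6 had no read in any of the 3 libraries (Ifit3, Ifit3b, Oas1a, Usp18, Slfn1 and Ifi44). The most abundant were Bst2 at 103, 107 and 91.1 CPM and Trim25 at 108, 86.8 and 94.0 CPM, whose ranges overlapped. Bst2 encodes tetherin, which holds budding virions at the cell surface, and Trim25 a ubiquitin ligase that activates the RNA sensor RIG-I. Dtx3l at 51.2, 62.6 and 43.6 CPM and Gbp7 at 44.6, 45.8 and 61.9 CPM came next and also overlapped each other. Experiment 1 gave a similar picture, with 13 members over 10 CPM in sgControl LPs and the same 4 genes over 50 CPM. The members summed to 525 to 569 CPM in the sgControl LPs of experiment 2 and to 634 to 681 CPM in those of experiment 1.

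**Figure D1:**
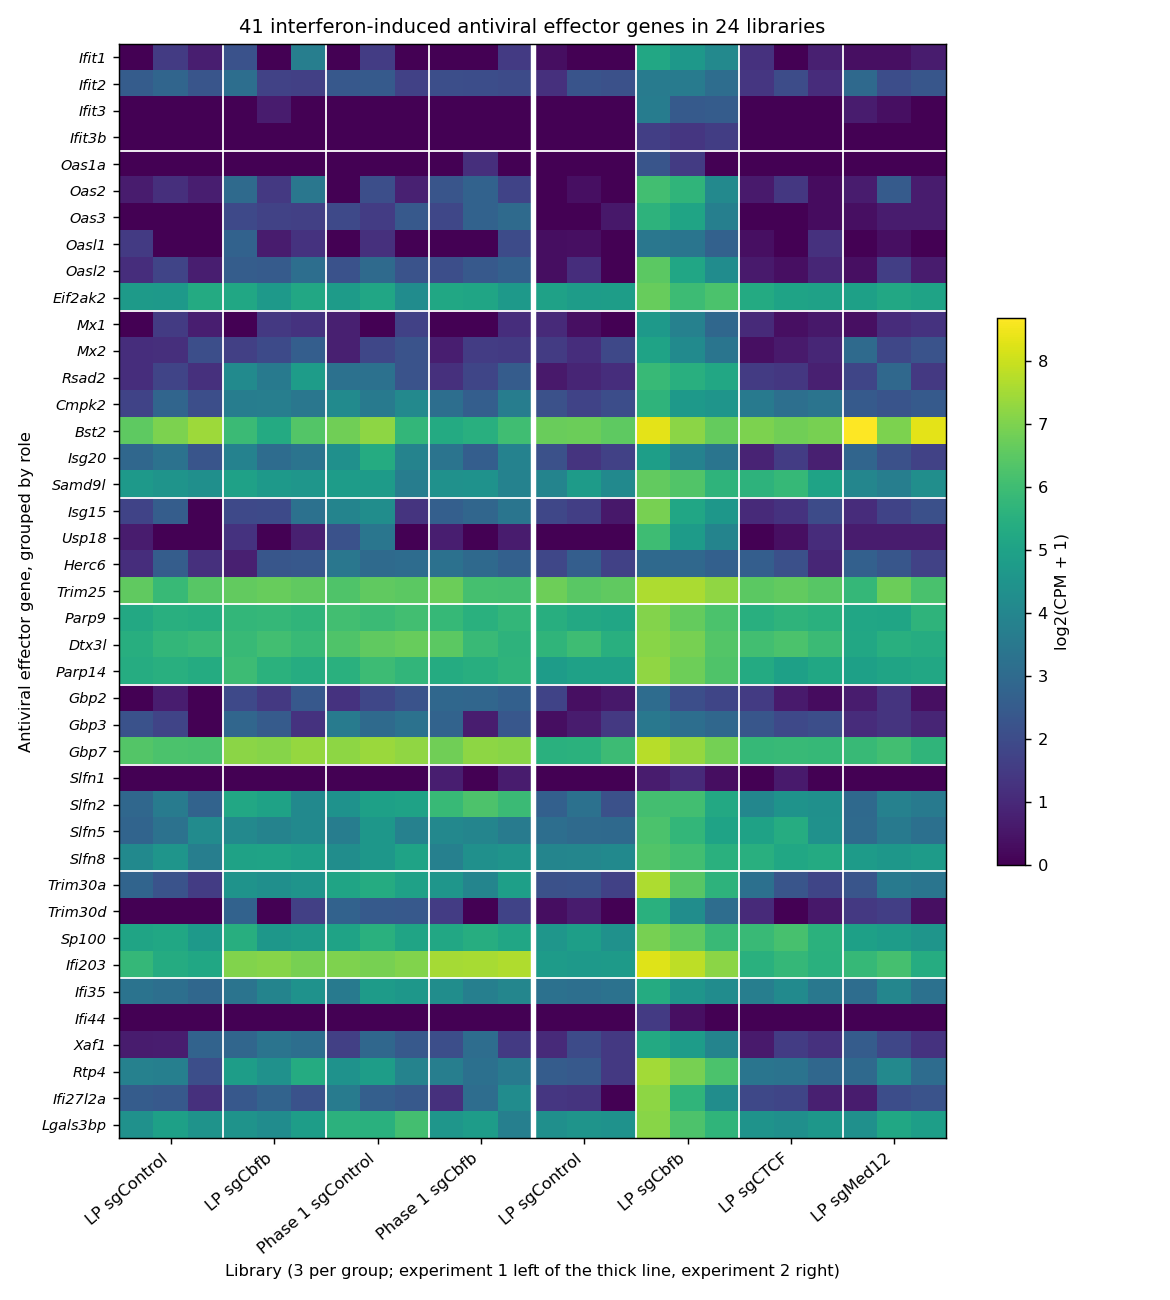
Level of each of the 41 members (rows, grouped by role) in each of the 24 libraries (columns, grouped by experiment, stage and sgRNA), as log2(CPM + 1) on the colour scale. The sgCbfb LPs of experiment 2 stand out, with 32 members averaging over 10 CPM against 12 in their sgControl LPs.

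sgCbfb LPs of experiment 2 had more transcript of nearly the whole list. Of the 38 members tested, 30 were called higher and 0 lower, while 2.67% of all tested genes were called higher and 1.65% lower. All 38 estimates were above 0, with a median log2 difference of 2.66 against -0.01 over all genes, and 36 had an adjusted p under 0.05. None was lower at an unadjusted p under 0.05 by limma, and edgeR, run on the read counts recovered from the CPM values, also called 30 higher and 0 lower. For 38 of the 41 members, tested or not, every sgCbfb library lay above every sgControl library, with Bst2, Oas1a and Ifi44 as the exceptions. The share of all genes with such a separation was not counted, so this number is a description only. For Slfn1 it rested on 2, 4 and 1 reads with sgCbfb and 0 in every control library. The 8 called members with the largest folds averaged under 2 CPM in the controls, while the 4 members over 50 CPM there (Bst2, Trim25, Dtx3l and Gbp7) changed 1.86- to 3.20-fold. Oas3, Ifit3 and Ifit3b reached 1 CPM only in the sgCbfb libraries. Ifit1, Oas2, Oasl1, Oasl2 and Usp18 reached it in too few other libraries to enter the test without them. These genes were among the 38 only because they were high with sgCbfb, so their direction does not count as a result.

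Among the genes that act on viral RNA, the OAS enzymes, which make oligoadenylates that activate RNase L, went from near absence to moderate levels. Oas2 was at 0, 0.295 and 0 CPM with sgControl and at 65.6, 50.1 and 16.1 CPM with sgCbfb. All 3 sgCbfb libraries were far above the controls, with the lowest at 16.1 CPM. The log2 difference was 5.15 (SE 0.49, adjusted p = 1.5e-08 by limma), and since only 1 control read was seen the ratio of 481 has a 95% exact counting interval of 85.9 to 19032, which covers counting error only. Oas3 went from 0, 0 and 0.487 CPM to 48.3, 32.7 and 12.3 CPM (log2 difference 4.62, SE 0.40, adjusted p = 4.1e-09, ratio 170, interval 46.7 to 1409). Oasl2 went from 0.263, 1.18 and 0 CPM to 89.7, 34.1 and 17.9 CPM, a 98.1-fold difference (4.80, SE 0.46, adjusted p = 1.9e-08). In both genes the groups were fully separate. Eif2ak2, which encodes PKR, the kinase that stops translation when it meets double-stranded RNA, already stood at 30.6, 27.2 and 27.8 CPM in the controls. It reached 100, 61.4 and 74.1 CPM, a 2.76-fold rise (1.40, SE 0.17, adjusted p = 6.8e-07). Oasl1, a catalytically inactive family member, stayed under the 10 CPM limit (9.84, 9.38 and 5.54 CPM with sgCbfb) despite an adjusted p of 2.9e-06, and Oas1a had reads in only 2 sgCbfb libraries, at 3.88 and 1.88 CPM.

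The IFIT proteins bind the ends of viral RNA and block its translation. Ifit1 was at 0.263, 0 and 0 CPM with sgControl and at 36.1, 23.6 and 15.9 CPM with sgCbfb. The groups did not overlap, and the log2 difference was 4.52 (SE 0.38, adjusted p = 2.0e-09 by limma, ratio 278 with an interval of 49.4 to 11008 on 1 control read). Ifit2, from 1.32, 3.84 and 3.41 CPM to 11.3, 11.3 and 7.56 CPM, rose 3.52-fold (1.57, SE 0.36, adjusted p = 0.0033). Ifit3 and Ifit3b, which had no control read, were detected in all 3 sgCbfb libraries, at 11.6, 4.56 and 4.79 CPM and at 2.09, 1.61 and 2.02 CPM. Against the floor of 3 reads over the control group these levels were at least 25.5-fold and at least 7.15-fold higher, but neither gene averaged over 10 CPM, so neither is counted as called.

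Of the 7 direct restriction factors, 6 were called higher. Rsad2, which encodes viperin, the enzyme that makes a chain-terminating nucleotide, was at 0.527, 0.886 and 1.22 CPM with sgControl and at 56.9, 44.0 and 36.5 CPM with sgCbfb. Its groups lay far apart and its sgCbfb libraries were closer to each other than those of the OAS genes, with a 52.3-fold difference (4.63, SE 0.36, adjusted p = 5.8e-10 by limma). Cmpk2, a mitochondrial nucleotide kinase gene next to Rsad2 on chromosome 12, went from 3.43, 2.36 and 3.17 CPM to 49.2, 24.7 and 22.2 CPM (10.7-fold, adjusted p = 2.9e-08). The MX GTPases block the transport and assembly of viral nucleoproteins. Mx1 went from 1.05, 0.295 and 0 CPM to 25.3, 13.1 and 6.55 CPM (33.4-fold, adjusted p = 2.0e-06), and Mx2, which GENCODE M21 lists as a polymorphic pseudogene, rose 10.2-fold (adjusted p = 1.8e-05). The exonuclease gene Isg20 rose 7.19-fold and Samd9l, whose product halts translation of poxvirus RNA, 3.96-fold. Bst2 was the exception of this set. It was at 103, 107 and 91.1 CPM with sgControl and at 324, 146 and 98.0 CPM with sgCbfb, so the groups overlapped and the 1.88-fold difference did not pass (log2 difference 0.73, SE 0.31, adjusted p = 0.14). Under 4 alternatives, among them edgeR and limma without sgCbfb replicate 3, the adjusted p of Bst2 fell to 0.012 to 0.049. Its promoter window held 2 ISRE cores.

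In the ISG15 system the modifier and its protease responded and the ligases did not pass all criteria. Isg15, the ubiquitin-like protein that is attached to viral and cellular proteins, went from 2.64, 2.07 and 0.487 CPM to 118, 34.6 and 23.4 CPM, a 34.0-fold difference (4.20, SE 0.46, adjusted p = 1.8e-07 by limma). Usp18, which removes ISG15 and restrains the interferon receptor, had no read in any control library and 62.9, 26.5 and 14.1 CPM with sgCbfb, at least 125-fold higher against the floor of 3 reads over the group (4.90, SE 0.42, adjusted p = 3.0e-09). Both genes were separate between the groups and both were highest by far in sgCbfb replicate 1. Trim25 went from 108, 86.8 and 94.0 CPM to 195, 191 and 150 CPM, again with no overlap, but at 1.86-fold it missed the fold limit (0.88, SE 0.16, adjusted p = 0.00035). Herc6, the mouse ligase for ISG15, had 2.64, 5.02 and 2.19 CPM with sgControl and 6.86, 6.70 and 5.29 CPM with sgCbfb (0.82, SE 0.39, adjusted p = 0.20), and Herc6 also shares exon sequence on its own strand with the gene model Gm45193.

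The other groups followed with graded sizes. Rtp4, an interferon-induced receptor transporter, went from 4.75, 4.43 and 1.70 CPM to 178, 120 and 74.6 CPM (34.2-fold, log2 difference 4.75, SE 0.33, adjusted p = 5.0e-11 by limma). Ifi27l2a, a small mitochondrial protein gene, went from 1.58, 1.48 and 0 CPM to 147, 50.7 and 18.4 CPM (70.6-fold, 4.83, SE 0.54, adjusted p = 2.7e-07), the widest ratio between sgCbfb libraries among the members over 10 CPM. Trim30a and Trim30d are neighbouring TRIM ligase genes on chromosome 7, and Trim30a is known to restrain Toll-like receptor signalling. Trim30a went from 3.43, 3.54 and 2.19 CPM to 197, 85.0 and 48.6 CPM (36.1-fold, adjusted p = 4.7e-09), and Trim30d from 0.263, 0.590 and 0 CPM to 44.4, 18.2 and 7.56 CPM (ratio 84.1, interval 28.4 to 410, adjusted p = 8.2e-07). Ifi203, a DNA-binding HIN-200 protein gene, was at 26.1, 24.8 and 25.6 CPM with sgControl and at 308, 227 and 144 CPM with sgCbfb, the highest mean of any member there (8.87-fold, 3.03, SE 0.20, adjusted p = 1.6e-11). Slfn2, which keeps T cells quiescent, rose 9.81-fold, Slfn5 7.25-fold and Slfn8 4.19-fold, and the pro-apoptotic gene Xaf1 rose 13.8-fold. Lgals3bp, a secreted galectin-binding glycoprotein, rose 4.37-fold, Sp100, a nuclear body component, 3.76-fold, and Ifi35 3.19-fold. The smallest folds among the called members were those of Dtx3l (2.18) and Parp9 (2.71), partners in ADP-ribosylation, while their relative Parp14 rose 3.83-fold and the GTPase Gbp7 3.20-fold. Gbp2 and Gbp3, which attack the vacuoles of intracellular pathogens, had adjusted p values of 0.033 and 1.8e-05 but averaged under 10 CPM, as Slfn1 and Ifi44 did with too few reads to test. The Parp9 and Dtx3l models share exon sequence on opposite strands and Slfn5 shares some with its antisense gene Slfn5os, and the strand setting of the counting is not given in the sources used here, so reads of these overlaps cannot be assigned. Other members share exon bases with a gene model on their own strand, where a strand setting would not help. These are Gbp7 (637 bases, Gm43802), Rtp4 (296, Gm45338), Parp14 (110, Gm49730), Sp100 (104, n-R5s215) and Ifi203 (37, Mndal).

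**Figure D2:**
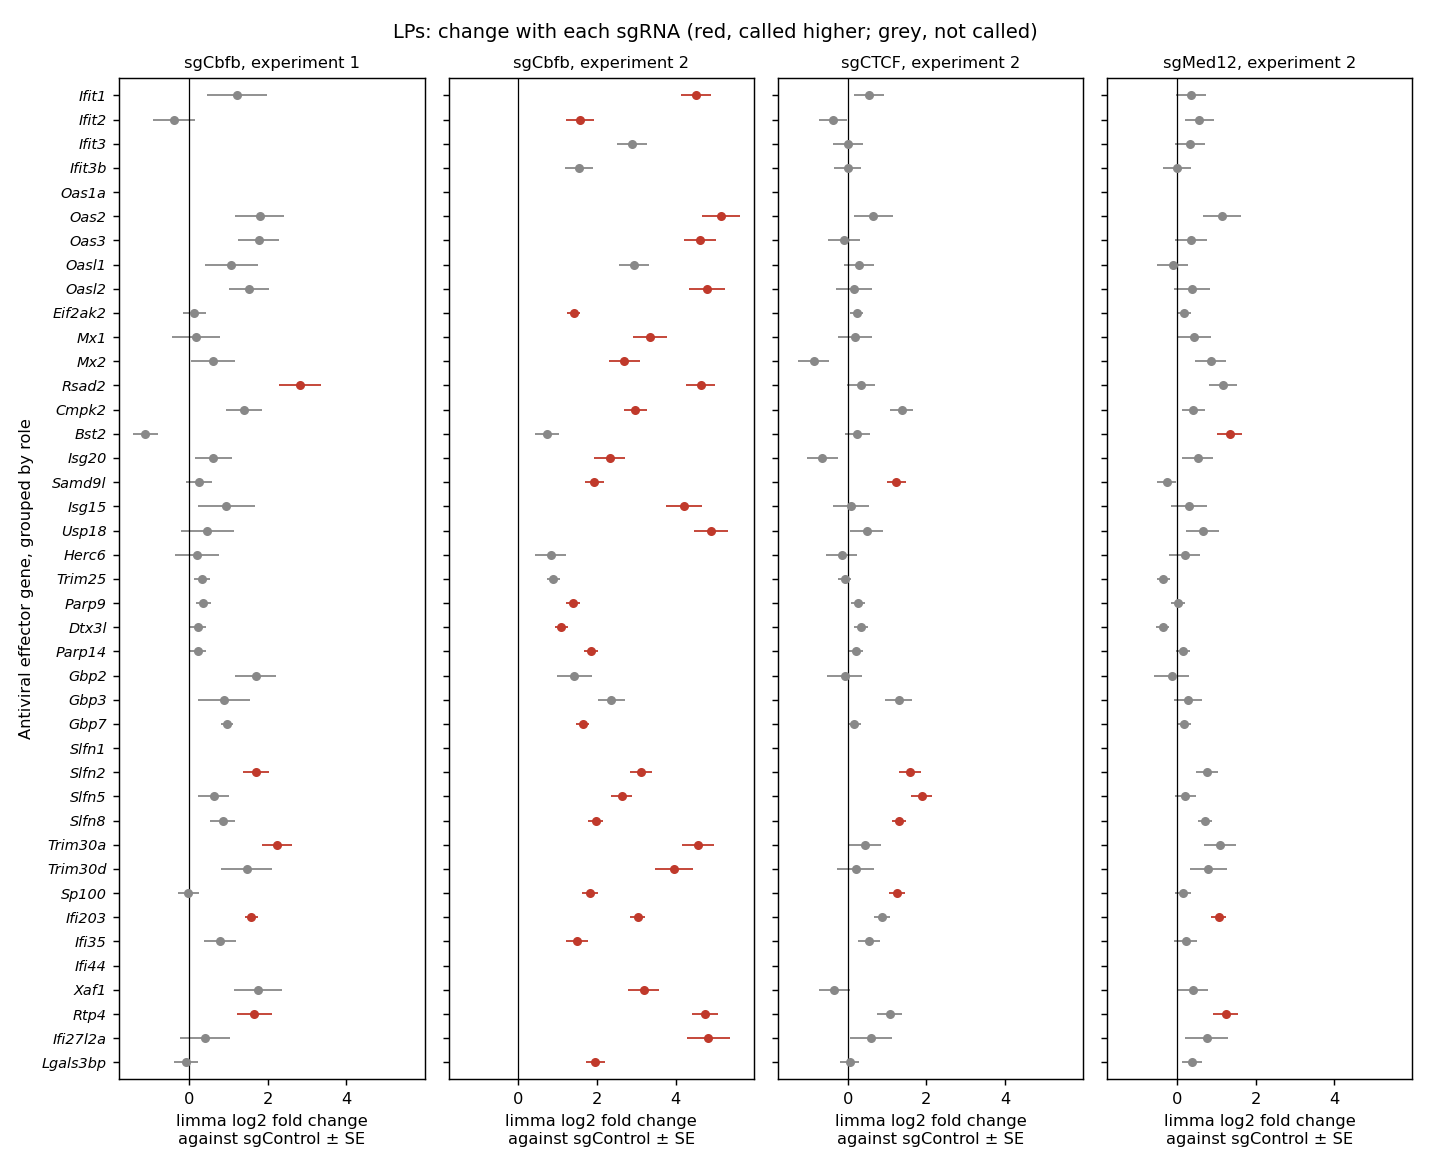
Log2 difference from sgControl for each tested member in LPs with sgCbfb (experiments 1 and 2), sgCTCF and sgMed12, as limma estimates on log2(CPM + 1) with bars of 1 SE. In experiment 2 all 38 sgCbfb estimates lie above 0, while the sgCTCF and sgMed12 estimates have medians of 0.26 and 0.37 and fewer calls (5 and 3, in red). Among these 38 are genes that entered the test only through the sgCbfb libraries.

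The size of the response differed between the 3 sgCbfb libraries in a shared way. Of the 32 members with a mean over 10 CPM there, 32 were highest in replicate 1 and 31 lowest in replicate 3, and the highest library exceeded the lowest by a median of 2.30 times and by up to 7.99 times, for Ifi27l2a. In the sgControl LPs the 12 members over 10 CPM showed no such order (4, 6 and 2 were highest in replicates 1, 2 and 3), and their median ratio was 1.21. The summed members were at 3468, 2227 and 1486 CPM in the sgCbfb libraries, so even the lowest was well above the 525 to 569 CPM of the controls. With any of the 12 libraries of the experiment left out, 26 to 31 members were called higher. Without sgCbfb replicate 1, Dtx3l fell under the fold limit and Mx1 and Ifit2 under the 10 CPM limit, and Ifit2 also without sgCbfb replicate 2. Oas3 reached 1 CPM only in the 3 sgCbfb libraries, so without any of these it could not enter the test. The same sgCbfb libraries carried more myeloid transcript: 20 myeloid marker genes summed to 1189, 1234 and 1033 CPM against 155 to 198 CPM in the controls, 5 of them (F13a1, Fcgr3, Ly6c2, Mpo and Mrc1) being called higher. The 12 plasmacytoid dendritic cell markers moved the other way, to 525, 549 and 456 CPM from 1232 to 1620 CPM, with Bcl11a, Ccr9 and Cox6a2 called lower, and 20 OP9 stromal markers summed to 6.04 to 26.8 CPM and to 9.74 to 47.5 CPM in the controls. The part of these markers in the result was not tested.

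**Figure D3:**
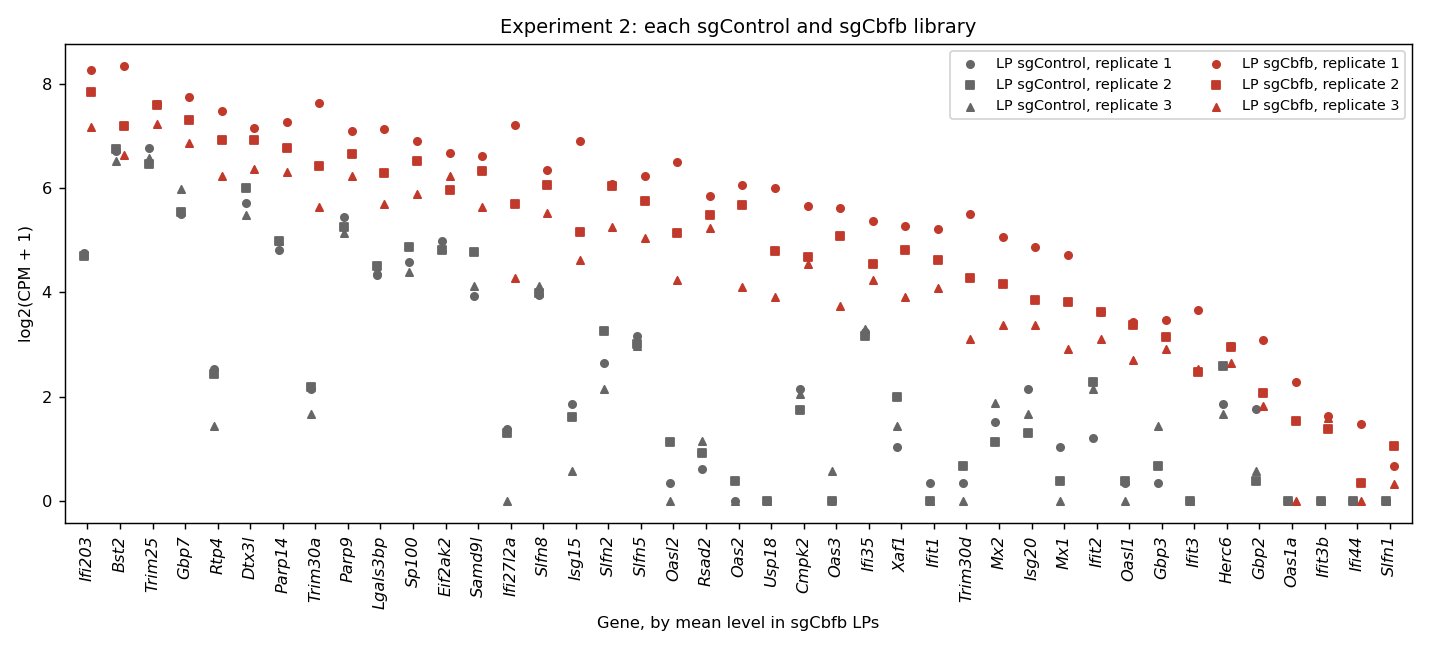
Level, as log2(CPM + 1), of the 41 members in each sgControl (grey) and sgCbfb (red) library of experiment 2, with 1 point per library and the genes ordered by their mean with sgCbfb. Replicate 1 of sgCbfb (circles) is the highest for all 32 members with a mean over 10 CPM there and replicate 3 (triangles) the lowest for 31, and the groups overlap for Bst2, Oas1a and Ifi44.

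Of the genes that act upstream, those for interferons themselves were almost unseen. None of 21 interferon genes was high enough for the test, and reads were found in experiment 2 only for Ifna2 (1 read, with sgCbfb) and Ifng (3 reads, with sgCTCF), and in experiment 1 only for Ifnz (2 reads, in sgControl LPs). Among the receptor and signalling genes, Irf7 and Irf9 rose with sgCbfb. Irf7, the factor that amplifies interferon production, went from 2.90, 6.20 and 1.22 CPM to 96.9, 59.0 and 34.0 CPM (3.90, adjusted p = 1.7e-08 by limma). Irf9, the DNA-binding subunit of the complex named above, went from 36.9, 40.2 and 35.1 CPM to 125, 117 and 73.8 CPM (1.44, adjusted p = 3.7e-07). For both genes the groups were separate and sgCbfb replicate 1 was the highest. Among the members, 11 of the 16 tested genes with an ISRE core were called higher (median log2 difference 2.76), 11 of the 14 with a window but no core (1.94) and 8 of the 8 without a given window (4.05). Each set includes genes that entered the test only through the sgCbfb libraries. These are Ifit1, Ifit3, Ifit3b and Oas3 with a core, Oasl1 and Oasl2 without a core, and Oas2 and Usp18 without a window. The counts and medians of the sets are therefore a description only.

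sgCbfb had a smaller effect on the list in the LPs of experiment 1. There, 5 of the 36 tested members were called higher and 0 lower, against 1.1% and 0.597% of all tested genes. The median log2 difference was 0.82 (0 over all genes), and 32 of the 36 estimates were above 0. At an unadjusted p under 0.05 by limma, 14 were higher and 1 lower, and edgeR called 5 higher and 1 lower. Ifi203 was at 54.9, 39.6 and 35.3 CPM with sgControl and at 130, 137 and 121 CPM with sgCbfb, fully separate and 2.98-fold apart (1.58, SE 0.16, adjusted p = 1.9e-06 by limma). Trim30a went from 5.90, 3.71 and 1.93 CPM to 21.2, 18.9 and 21.4 CPM (2.23, SE 0.37, adjusted p = 0.00074), and Rsad2 from 1.18, 2.48 and 1.28 CPM to 16.9, 10.9 and 27.1 CPM, the largest fold of the called members at 11.1 (2.81, SE 0.54, adjusted p = 0.0028). Slfn2 rose from 6.49, 11.1 and 5.78 CPM to 36.0, 31.5 and 16.4 CPM (1.70, SE 0.33, adjusted p = 0.0032). In each of these genes no sgCbfb library was as low as any control. Rtp4, from 13, 12.4 and 3.21 CPM to 27.5, 20.1 and 40 CPM, was called at an adjusted p of 0.045. That call was lost without sgControl replicate 3 (0.26), without any of the 3 sgCbfb LP libraries (0.057 to 0.24) and without any of the sgCbfb Phase 1 libraries, which share the estimate of the spread (0.052 to 0.057). Gbp7 was at 80.9, 73.7 and 72.6 CPM with sgControl and at 145, 138 and 161 CPM with sgCbfb, again separate, but at 1.95-fold it missed the fold limit (adjusted p = 0.00033). Trim25 did not differ beyond the spread (93.8, 57 and 86.1 CPM against 95.9, 102 and 94.2 CPM, adjusted p = 0.61).

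Several of the strongest responders of experiment 2 stayed near the detection floor in experiment 1. Isg15 was at 2.36, 4.95 and 0 CPM in sgControl LPs and at 2.82, 2.87 and 8.56 CPM in sgCbfb LPs, which overlap (adjusted p = 0.73), and Usp18 had 0.590, 0 and 0 CPM against 1.41, 0 and 0.713 CPM. Mx1 had at most 3 reads in every library of experiment 1, and Ifi44 and Ifit3b had none. Bst2 went the other way, with 92.1, 124 and 170 CPM against 59.2, 38.4 and 82.1 CPM, groups that did not overlap, but it did not pass (-1.11, SE 0.31, adjusted p = 0.060), whereas edgeR called it lower. Of the 36 members tested in both experiments, 35 had the larger sgCbfb estimate in experiment 2, by a median of 1.83, and 32 were above 0 in both. Ifit1, Oas2, Oas3, Oasl1, Oasl2 and Usp18 are among the 36. They entered the test of experiment 2 only through its sgCbfb libraries, so their larger estimate there does not count as a result. Across these 36 genes, which are not independent and come from the same libraries, the 2 sets of estimates had a Pearson correlation of 0.64 and a Spearman correlation of 0.64. The difference between the experiments itself was not tested. The myeloid markers summed to 733 to 805 CPM with sgCbfb in experiment 1 and to 164 to 208 CPM with sgControl, and the plasmacytoid dendritic cell markers to 741 to 777 CPM and 1860 to 2147 CPM. Their part was not tested.

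Moving control cells from OP9 to OP9-DLL4 also raised some effectors. Between Phase 1 and LP cells with sgControl, 7 of 36 members were called higher, against 1.65% of all tested genes, 30 estimates were above 0, and the median log2 difference was 0.98 (-0.07 over all genes). edgeR called 8, adding Ifi35. Trim30a went from 5.90, 3.71 and 1.93 CPM in LPs to 32.5, 39.4 and 30.8 CPM in Phase 1 cells, an 8.89-fold difference (2.94, SE 0.37, adjusted p = 1.2e-05 by limma). Ifi203 reached 129, 119 and 131 CPM (2.92-fold, 1.55, SE 0.16, adjusted p = 9.1e-07) and Gbp7 148, 166 and 150 CPM (2.04-fold, 1.02, SE 0.15, adjusted p = 7.5e-05). All 3 genes were fully separate between the stages. Slfn2 rose 3.49-fold (adjusted p = 0.0016), Isg20 3.88-fold (0.029), Cmpk2 3.74-fold (0.022) and Lgals3bp 2.26-fold (0.027). Bst2 (112, 146 and 53.5 CPM in Phase 1 cells) and Trim25 (76.9, 93.5 and 90.2 CPM) overlapped their LP levels, with adjusted p values of 0.54 and 0.71. These comparisons share the LP sgControl libraries with those of sgCbfb, so their values are set side by side only. Without Phase 1 sgControl replicate 3, the library that stood apart, 7 members were called but Cmpk2 and Lgals3bp were not among them (adjusted p = 0.054 and 0.077 by limma), and leaving out any other of the 12 libraries gave 4 to 7. Cmpk2, Isg20 and Lgals3bp were each also lost without LP sgControl replicate 1 or 3 (0.068 to 0.12), Cmpk2 without Phase 1 sgControl replicate 1 (0.064), Isg20 without Phase 1 sgControl replicate 2 (0.14), where Gbp7 fell under the fold limit. The Phase 1 markers summed to 847 to 1019 CPM in these cells and to 44.3 to 60.2 CPM in LPs, and the plasmacytoid dendritic cell markers to 652 to 824 CPM and 1860 to 2147 CPM, and the part of such changes in cell state was not tested.

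In Phase 1 cells sgCbfb did not raise the list. Cbfb transcript itself differed less there (-0.27, adjusted p = 0.59 by limma) than in the LPs of experiment 1 (-1.09, adjusted p = 0.0055), and the part of this was not tested. Of the 36 tested members 1 was called higher and 1 lower, against 1.96% and 1.56% of all tested genes, and 28 estimates were below 0 (median -0.22, against 0.06 over all genes). Slfn2 rose from 20.5, 29.7 and 31.5 CPM to 57.7, 75.4 and 60.1 CPM (2.37-fold, 1.23, SE 0.33, adjusted p = 0.025 by limma), the only member called higher with sgCbfb at both stages. Lgals3bp fell from 47.3, 45.2 and 68.2 CPM to 22.7, 27.0 and 12.4 CPM (-1.37, SE 0.31, adjusted p = 0.0072). Neither pair of groups overlapped. Ifi203 was at 183, 187 and 200 CPM, above all 3 controls, but only 1.5-fold (adjusted p = 0.032), and Gbp7 at 110, 147 and 142 CPM was below them (adjusted p = 0.47). Leaving out Phase 1 sgControl replicate 3 brought the count from 2 to 4, with Isg20 and Bst2 also called lower, and leaving out other libraries brought it down to 0. Lgals3bp was lost without sgCbfb replicate 3 (adjusted p = 0.066 by limma), and Slfn2 without any of the sgCbfb libraries or sgControl replicate 1 (0.065 to 0.14). Myeloid markers summed to 594 to 622 CPM with sgCbfb and to 147 to 161 CPM with sgControl, with 5 called higher and Ccr2 called lower. Plasmacytoid dendritic cell markers summed to 881 to 990 CPM and 652 to 824 CPM, with 2 called higher and 2 lower. The 8 Phase 1 T-progenitor markers summed to 448 to 464 CPM and 847 to 1019 CPM. The part of all these markers in the member values was not tested.

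The interaction of stage and sgCbfb tested the contrast between the stages directly. Cbfb transcript was called lower with sgCbfb in LPs but not in Phase 1 cells, so the stages may differ in Cbfb loss, which was not tested. The sgCbfb effect was smaller in Phase 1 cells than in LPs for 32 of 36 members, and 5 passed, against 0.597% of all tested genes that were called with a smaller effect. These were Rsad2 (-3.87, SE 0.76, adjusted p = 0.0080 by limma), Trim30a (-2.89, SE 0.53, adjusted p = 0.0049), Rtp4 (-2.56, SE 0.63, adjusted p = 0.046), Gbp7 (-1.18, SE 0.21, adjusted p = 0.0036) and Ifi203 (-0.99, SE 0.23, adjusted p = 0.030). Rsad2 had the estimate farthest from 0 of these 5. It was at 1.18, 2.48 and 1.28 CPM in control LPs and 16.9, 10.9 and 27.1 CPM in sgCbfb LPs, but at 8.47, 8.39 and 3.67 CPM in control Phase 1 cells and 1.30, 2.51 and 4.71 CPM in sgCbfb Phase 1 cells, where the groups overlapped, and its interaction was lost without moderation of the variances (adjusted p = 0.056 by limma). Rtp4 had 20.5, 27.7 and 13.9 CPM in control Phase 1 cells and 12.3, 8.17 and 10.6 CPM with sgCbfb, again below the controls. Rsad2, Trim30a and Gbp7 kept their interaction calls with each library left out, while Ifi203 and Rtp4 each lost theirs under 9 of 12 such fits (adjusted p = 0.053 to 0.096 and 0.050 to 0.17 by limma). Without Phase 1 sgControl replicate 3, 5 members were called. Within sgCbfb cells, Phase 1 against LP, Slfn2 was called higher (2.30-fold, adjusted p = 0.049) and Rsad2 lower (-2.34, SE 0.54, adjusted p = 0.017), against 0.74% and 0.453% of all tested genes. Slfn2 was lost there without any of 8 libraries (0.050 to 0.25), Rsad2 without any of 4 (0.069 to 0.12). Trim25 and Bst2 gave interaction estimates of -0.46 and 0.12 (adjusted p = 0.63 and 0.96).

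**Figure D4:**
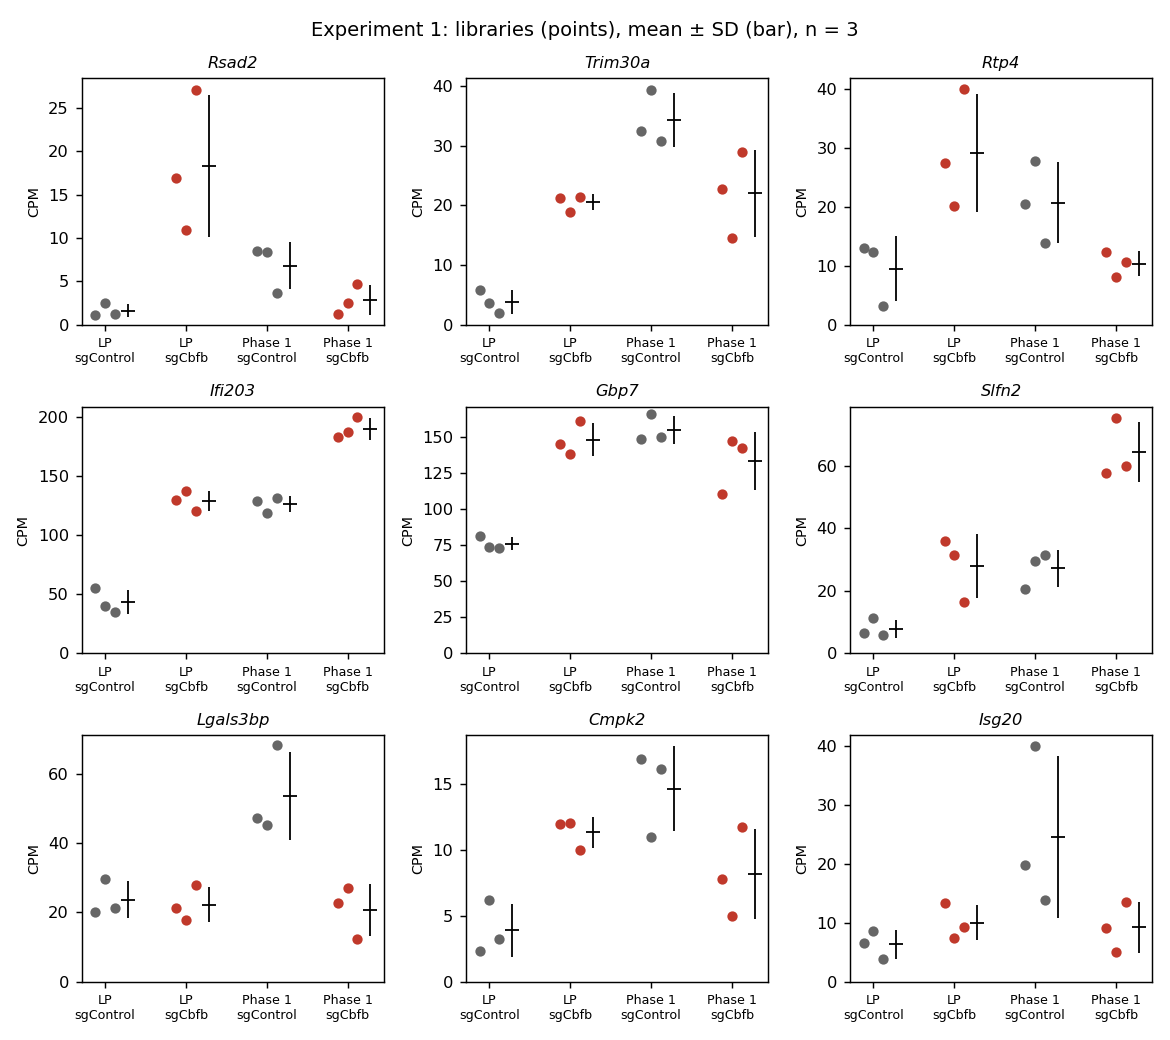
CPM in the 4 groups of experiment 1 for Rsad2, Trim30a, Rtp4, Ifi203 and Gbp7, whose interaction of stage and sgCbfb was called, and for Slfn2, Lgals3bp, Cmpk2 and Isg20, with 1 point per library and bars for the mean ± SD (n = 3). Rsad2 is highest in sgCbfb LPs, while Slfn2 is higher with sgCbfb at both stages.

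sgCTCF in LPs raised fewer members. Of 38 tested members 5 were called higher and 0 lower, against 1.81% and 0.622% of all tested genes, and the median log2 difference was 0.26. The 38 include the genes that entered the test only through the sgCbfb libraries. With sgCTCF and sgControl these averaged under 1 CPM, so they could not pass the 10 CPM limit. At an unadjusted p under 0.05 by limma, 9 were higher and 1 lower, and edgeR called 5 higher and 0 lower. All 3 tested Schlafen genes were among them. Slfn5 went from 7.91, 7.09 and 6.82 CPM to 30.9, 40.7 and 20.3 CPM (4.21-fold, 1.88, SE 0.27, adjusted p = 2.6e-05 by limma). Slfn8 went from 14.5, 14.8 and 16.3 CPM to 43.5, 35.4 and 38.8 CPM (2.58-fold, 1.31, SE 0.18, adjusted p = 2.3e-05), and Slfn2 from 5.27, 8.56 and 3.41 CPM to 15.3, 20.9 and 19.4 CPM (3.22-fold, 1.59, SE 0.28, adjusted p = 0.00039). None of the 3 genes had an overlap between the groups. They lie close together on chromosome 11, between the start of Slfn5 at 82951349 and the end of Slfn2 at 83070678 (GRCm38), with Slfn1, which was hardly detected, beside them. Sp100 rose from 22.9, 28.1 and 20 CPM to 59.0, 70.4 and 45.5 CPM (2.47-fold, adjusted p = 0.00016) and Samd9l from 14.2, 26.3 and 16.3 CPM to 48.6, 55.4 and 32.4 CPM (2.40-fold, adjusted p = 0.0012). Another 4 members had an adjusted p under 0.05 by limma and groups that did not overlap, but missed a limit of the call. Cmpk2 went from 3.43, 2.36 and 3.17 CPM to 10.7, 8.07 and 9.24 CPM (3.13-fold, adjusted p = 0.0024), Gbp3 from 0.263, 0.590 and 1.70 CPM to 4.03, 2.78 and 3.23 CPM (3.93-fold, adjusted p = 0.016) and Rtp4 from 4.75, 4.43 and 1.70 CPM to 9.39, 8.91 and 6.47 CPM (2.28-fold, adjusted p = 0.037), all with means under 10 CPM. Ifi203 went from 26.1, 24.8 and 25.6 CPM to 45.1, 53.7 and 44.6 CPM (1.88-fold, adjusted p = 0.0042), under the fold limit. Isg15 was at 1.07, 1.39 and 3.00 CPM, Rsad2 at 1.88, 1.67 and 0.693 CPM and Oas2 at 0.536, 1.67 and 0.231 CPM with sgCTCF, and none of these passed (adjusted p = 0.94, 0.65 and 0.47). Bst2 (126, 111 and 120 CPM) and Trim25 (89.4, 97.5 and 85.1 CPM) gave adjusted p values of 0.71 and 0.83. The interferon gamma receptor gene Ifngr2 was higher, at 33.5, 28.1 and 27.5 CPM against 14.8, 16.8 and 10.7 CPM (1.04, adjusted p = 0.00089). The myeloid markers summed to 352 to 373 CPM, above the 155 to 198 CPM of the controls. They did not rise as a set: Ccr2, Fcgr3 and Ly6c2 were called higher, but the 13 tested markers had a median log2 difference of -0.32. Their part was not tested. All 5 member calls held with each library left out, but Samd9l lost its call without moderation of the variances (adjusted p = 0.074 by limma).

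With sgMed12, Bst2, Ifi203 and Rtp4 rose. These 3 of 38 were called higher and 0 were lower, against 0.668% and 0.364% of all tested genes, with a median of 0.37. Here too the 38 include the genes that entered only through the sgCbfb libraries, which averaged under 10 CPM and could not be called. At an unadjusted p under 0.05 by limma, 9 were higher and 2 lower, and edgeR called 3 higher and 0 lower. Bst2, which had not passed with sgCbfb, was at 413, 125 and 323 CPM against 103, 107 and 91.1 CPM (2.86-fold, 1.34, SE 0.31, adjusted p = 0.013 by limma). Replicate 2, the library that stood apart, was barely above the controls while the other 2 libraries were over 3 times higher. Ifi203 went from 26.1, 24.8 and 25.6 CPM to 55.9, 69.5 and 40.9 CPM (2.17-fold, adjusted p = 0.0029) and Rtp4 from 4.75, 4.43 and 1.70 CPM to 6.78, 16 and 7.38 CPM (2.77-fold, adjusted p = 0.025), both highest in replicate 2. Without that replicate only Bst2 was still called, since Ifi203 and Rtp4 fell under the fold limit. Bst2 was lost without sgMed12 replicate 1 or 3 or sgControl replicate 3 (adjusted p = 0.053 to 0.092 by limma), and Rtp4 without sgMed12 replicate 3 or sgControl replicate 3 (0.057 and 0.13). Gbp7 (56.8, 65.1 and 51.1 CPM) and Trim25 (54.5, 106 and 72.4 CPM) overlapped their controls, with adjusted p values of 0.53 and 0.19. Mitochondrial reads made up 13.7%, 8.44% and 11.2% of these libraries against 7.50% to 8.03% in the controls, and their part was not tested.

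The direct comparisons between sgRNAs, which share the sgCbfb, sgCTCF and sgMed12 libraries with each other, separated the members further. With sgCTCF, 25 of 38 were called lower than with sgCbfb, against 3.38% of all tested genes, and the median was -1.92. Among these 38 are the genes that entered the test only through the sgCbfb libraries. The largest folds of mean CPM belonged to Oas3 (log2 difference -4.71, SE 0.40, adjusted p = 1.9e-09 by limma), Oasl2 (-4.65), Oas2 (-4.50), Usp18 (-4.41), Ifi27l2a (-4.24), Ifit1 (-3.97), Trim30d (-3.76) and Mx2 (-3.55), these having adjusted p values of 1.3e-06 or less. Of the 5 genes that rose with sgCTCF, Slfn2 was called lower than with sgCbfb (-1.52, adjusted p = 0.00021). The other 4 differed by less than 2-fold, with log2 differences of -0.74 for Slfn5 (95% interval -1.29 to -0.19), -0.69 for Samd9l (-1.19 to -0.19), -0.65 for Slfn8 (-1.03 to -0.28) and -0.56 for Sp100 (-0.99 to -0.14). Ifi35 lost its call without sgCTCF replicate 1 or 3 or sgCbfb replicate 1, Ifit2 without sgCbfb replicate 1 or 2, and Mx1 and Parp9 without sgCbfb replicate 1. Bst2 (-0.48, adjusted p = 0.30) and Trim25 (-0.96, adjusted p = 7.7e-05) were not called.

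With sgMed12, 30 members were called lower than with sgCbfb, against 2.72% of all tested genes (median -2.14). The members tested here also include the genes that entered only through the sgCbfb libraries. The called members with the largest folds of mean CPM were Oasl2 (-4.42), Oas3 (-4.26), Usp18 (-4.25), Ifit1 (-4.18), Ifi27l2a (-4.08), Oas2 (-4.01), Isg15 (-3.90) and Trim30d (-3.16), with adjusted p values of 2.3e-05 or less by limma. Bst2 (0.61, adjusted p = 0.19) and Ifit2 (-1.0, adjusted p = 0.058) did not pass. Without sgCbfb replicate 1, Mx1 and Ifi35 were lost. Between sgMed12 and sgCTCF, 1 member was called higher (Bst2, 1.10, adjusted p = 0.014) and 3 lower (Slfn5, -1.67, adjusted p = 9.2e-05, Samd9l, -1.50, adjusted p = 0.00011, and Sp100, -1.10, adjusted p = 0.00047), against 1.71% and 2.31% of all tested genes. Bst2 was lost without sgMed12 replicate 1 or 3 or sgCTCF replicate 2 (0.055 to 0.090), and Sp100 fell under the fold limit without sgCTCF replicate 2. Without sgMed12 replicate 2 the counts were 30 against sgCbfb and 5 against sgCTCF. Trim25 and Ifi203 did not differ beyond the spread there (-0.27 and 0.18, adjusted p = 0.26 and 0.56).

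**Figure D5:**
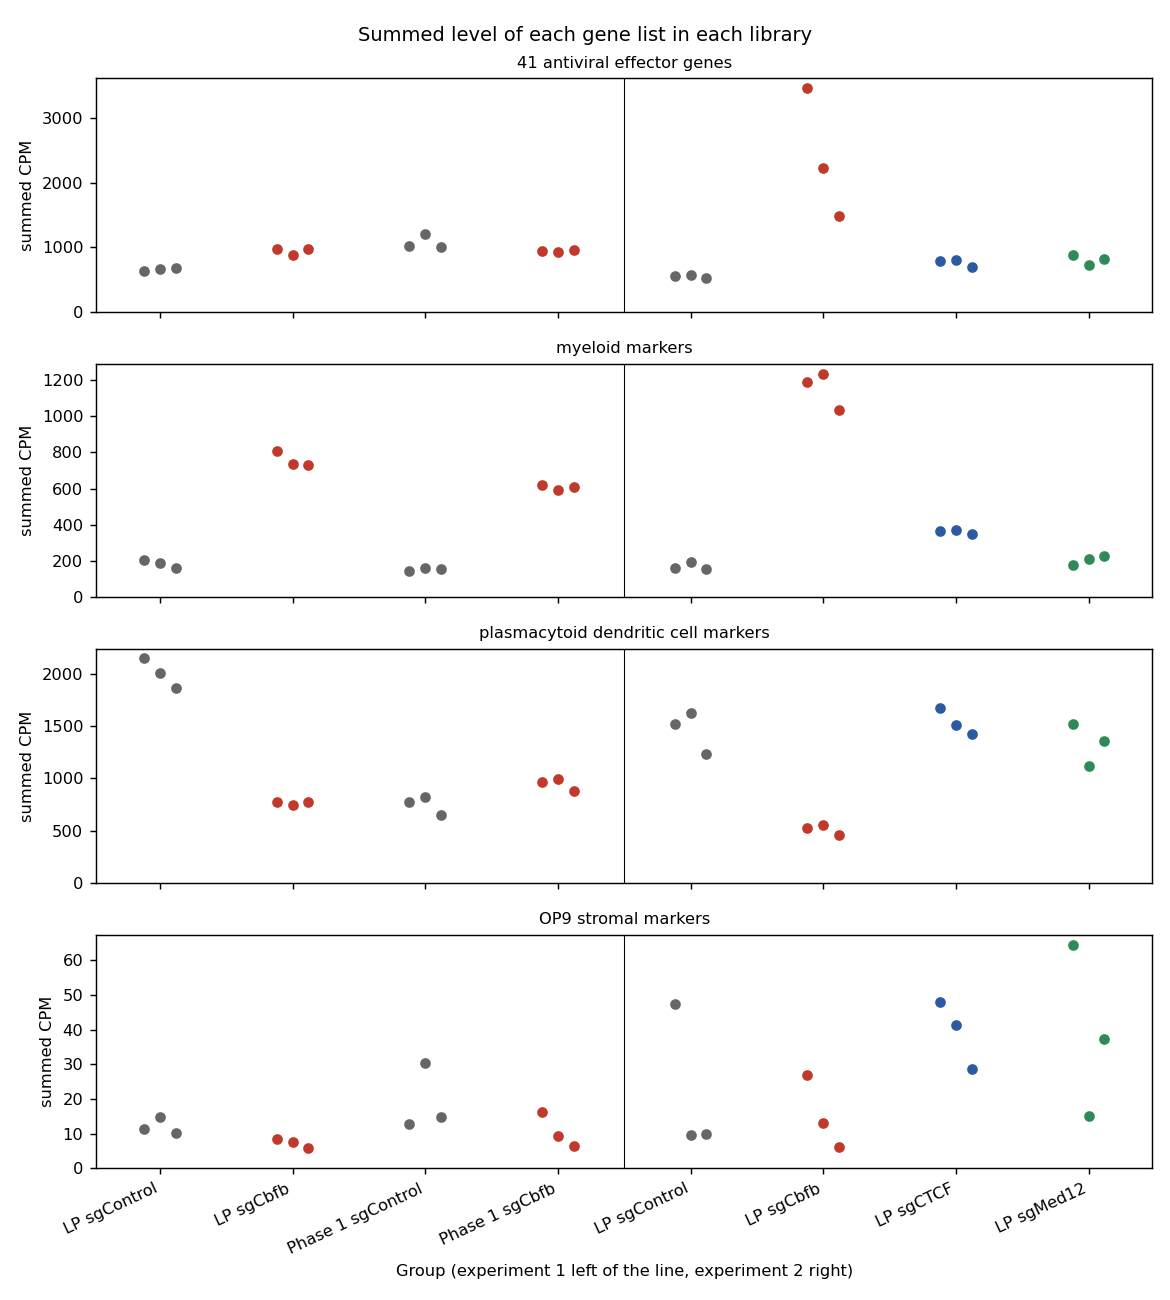
Summed CPM per library of the members, of myeloid markers, of plasmacytoid dendritic cell markers and of OP9 stromal markers, with 1 point per library in each of the 8 groups. The members sum to 1486 to 3468 CPM in the sgCbfb LPs of experiment 2 and to at most 1201 CPM in any other library.

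Over the 4 comparisons of an sgRNA with sgControl in LPs and the 1 in Phase 1 cells, 10 members were called in none (Ifit3, Ifit3b, Oas1a, Oasl1, Herc6, Trim25, Gbp2, Gbp3, Slfn1 and Ifi44). Of these 10, Trim25 was the only abundant gene, and the other 9 averaged under 10 CPM in every group. Bst2 was called with sgMed12 and in no other of these comparisons, and the other 30 members were called with sgCbfb in the LPs of experiment 2. Slfn2 was called with sgCbfb in both LP experiments and in Phase 1 cells and with sgCTCF, the most of any member. In that gene each sgRNA group lay above its control in all 3 libraries of each of these comparisons.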

How the data were processed

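Total RNA of sorted cells was converted to QuantSeq 3′ libraries (FWD kit) and read as 75-base single reads. According to the study's methods and the submitters' processing notes, the authors used fastp for adapter trimming and STAR for mapping to mm10, and scaled each library to 1000000 reads. Tool versions, the counting program, its strand setting and its gene annotation are not given in the sources used here. The deposited values, which the files name TPM, are CPM: the steps between low values gave whole reads for 100% of values (within 0.1 read), with no scaling by gene length, as fits 3′ tags. They were used as CPM, and 1 row per file without a gene identifier and 1 deposited column that holds the authors' mean were not used. With 3′ tags a longer transcript does not collect more reads, so levels can be set side by side between genes without dividing by length.

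A gene entered the fit if 3 or more libraries of the experiment had 1 CPM or more, and the fit used limma 3.58.1 (R 4.3.3, variance trend) on log2(CPM + 1), with the 4 groups of an experiment in 1 model and Benjamini-Hochberg adjustment over all tested genes. The call follows the thresholds in the study's methods, and an interaction was called at an adjusted p under 0.05 if any group of the experiment averaged more than 10 CPM. edgeR 4.0.16 (quasi-likelihood, TMM) on the recovered read counts, other pseudocounts, filters, scalings and call limits, a replicate block and each library left out were alternatives. The main limma fit and the edgeR fit were tested on simulated counts, for sgCbfb against sgControl in LPs of each experiment only. The other comparisons and alternatives were not simulated. The members, their roles and the other gene lists were chosen with earlier results of these data known, and 1 gene of the other lists is not reported here. Values in every library are given for up to 8 called members per comparison, by the ratio of group means, and for the 2 most abundant members not called in it; further members were added to cover each role. Counting intervals are 95% exact binomial intervals on the reads of both groups. Replicate numbers paired the samples by the preset check (a correlation over 0.1 in every pair) only between sgCTCF and sgCbfb, with correlations of 0.1003 to 0.1334. Positions are from GENCODE M21 (GRCm38, the same build as mm10), where all 41 members matched by gene identifier, and promoter sequences from RefSeq (GRCm38.p6). Python 3.11.15, pandas 2.3.3 and scipy 1.17.1 were used for the rest.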

Additional observations from a re-analysis of the deposited data

Results flagged for a closer look

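The effect of sgCbfb on 5 members differed between the stages by the interaction term of the limma fit, each with Benjamini-Hochberg adjustment over all tested genes. The sgCbfb effect in Phase 1 cells minus that in LPs, on the log2 scale, was -3.87 for Rsad2 (adjusted p = 0.0080), -1.18 for Gbp7 (adjusted p = 0.0036), -2.89 for Trim30a (adjusted p = 0.0049), -0.99 for Ifi203 (adjusted p = 0.030) and -2.56 for Rtp4 (adjusted p = 0.046). In all 5 the effect in LPs was above 0. In Phase 1 cells it was below 0 for Rsad2, Gbp7, Trim30a and Rtp4, none of which was called there, and above 0 for Ifi203. The Rsad2 difference was lost without moderation of the variances (adjusted p = 0.056). Ifi203 and Rtp4 were the least stable of these, their adjusted p passing 0.05 under 10 and 12 alternatives. Cbfb transcript was called lower with sgCbfb in LPs only, and the part of this in the stage differences was not tested.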

How the results depend on the processing

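No count reversed direction. When single libraries were left out, the number of members called ranged from 4 to 7 for sgCbfb in LPs of experiment 1 (5 as reported), from 0 to 4 for sgCbfb in Phase 1 cells (2), from 4 to 7 for Phase 1 against LP with sgControl (7), from 0 to 3 for the same with sgCbfb (2), from 3 to 5 for the interaction (5), from 26 to 31 for sgCbfb in experiment 2 (30), from 5 to 5 for sgCTCF (5), from 1 to 3 for sgMed12 (3), from 20 to 27 for sgCTCF against sgCbfb (25), from 28 to 31 for sgMed12 against sgCbfb (30) and from 2 to 5 for sgMed12 against sgCTCF (4). Without moderation of the variances the counts were 3 for sgCbfb in LPs of experiment 1, 0 for sgCbfb in Phase 1 cells, 0 for Phase 1 against LP with sgCbfb, 2 for the interaction and 0 for sgMed12. The same limma setting also lost Samd9l with sgCTCF (adjusted p = 0.074), and Isg20 and Lgals3bp between Phase 1 and LP with sgControl (0.095 and 0.096). Ifi35 for sgCTCF against sgCbfb (0.1) and Bst2 for sgMed12 against sgCTCF (0.2) were lost there too. edgeR called 4 with sgCbfb in Phase 1 cells. A pseudocount of 0.1 and no filter on low values each left 0 for Phase 1 against LP with sgCbfb, and no filter left 1 for sgMed12. Without a minimum mean CPM, 8 were called for sgCTCF and 8 for sgMed12 against sgCTCF, where no fold threshold gave 7. The cause of these shifts was not tested, except that a dropped threshold lets more genes pass. The fit with the replicate number as a block changed no count of members called: 30 in experiment 2 with sgCbfb, and 25 for sgCTCF against sgCbfb, where the numbers pair the samples. For 79 results of single members, 1564 adjusted p values were obtained over all alternatives. Of these, 1450 stayed on the same side of 0.05, 99 moved above it and 15 moved below it. Calls lost through the fold limit or the 10 CPM limit alone are not in these numbers. For Rtp4 with sgCbfb in LPs of experiment 1, the adjusted p ran from 0.052 to 0.26 in the 10 alternatives that lost it. Depth limits experiment 1 most, where 3 reads are 1.72 to 2.20 CPM and 6 members had at most 3 reads in every library.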

Other observations

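Interferon-induced genes outside the list were also compared between sgCbfb and sgControl LPs of experiment 2. Of 55 such genes, 38 were high enough for the limma test and 24 were called higher, against 2.67% of all tested genes, and their median log2 difference was 1.92, beside 2.66 for the tested members. A gene could enter this test through the sgCbfb libraries alone. How many did so was not counted, so these counts and medians are a description only. Gbp9, a guanylate-binding GTPase, was at 0.263, 0 and 0 CPM with sgControl and at 17.0, 16.4 and 11.8 CPM with sgCbfb (log2 difference 3.88, adjusted p = 2.2e-09). Ifi206, a HIN-200 gene, had no control read and 32.2, 17.2 and 7.56 CPM with sgCbfb (4.11, adjusted p = 2.9e-08). The immunity-related GTPases, which coat pathogen vacuoles, rose too: Igtp went from 7.91, 4.13 and 5.36 CPM to 65.0, 42.1 and 27.0 CPM (2.70, adjusted p = 2.8e-07) and Irgm2 from 1.05, 1.48 and 1.46 CPM to 23.0, 17.2 and 10.8 CPM (2.89, adjusted p = 9.5e-07). In each of these 4 genes the groups did not overlap. Not all interferon-induced genes moved: Trim21, an intracellular antibody receptor, was at 2.90, 8.27 and 6.57 CPM and at 10.1, 7.78 and 6.80 CPM (0.49, adjusted p = 0.42), and Sp140 and Slfn3 gave log2 differences of 0.07 and -0.21 (adjusted p = 0.91 and 0.75). These genes were picked after their values were seen.

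Gbp9 also stood out in experiment 1. It had no read in sgControl LPs and 14.1, 15.5 and 2.85 CPM in sgCbfb LPs, and 2.12, 3.87 and 0 CPM in sgControl Phase 1 cells against 12.3, 21.4 and 15.9 CPM with sgCbfb. It was called higher with sgCbfb at both stages, as Slfn2 was. Trim30c, a neighbour of Trim30a and Trim30d, showed the opposite: it was at 18.4, 9.03 and 2.93 CPM in sgControl Phase 1 cells and at 0, 0 and 1.18 CPM with sgCbfb, where it was called lower, and it had no read in the LPs of experiment 1.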
